A study of Mus musculus with 18 samples.

Results

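Liver RNA of LKO mice on the high-fat diet (LKO HFD) was compared with that of FF mice on the control diet (FF CD), which asks how far a liver that was fed fat without Ppp6r3 in its hepatocytes remained from the liver of mice that had neither the deletion nor the fat. The comparison took all genes with a mean of at least 0.5 RPKM over the 18 mice of the series, 11090 of the 25266 genes listed, and 9 of the 18 mice. FF mice carry floxed copies of Ppp6r3, which encodes SAPS3, on both chromosomes and no Cre recombinase. LKO mice carry the same floxed copies and in addition Alb-Cre, a recombinase driven by the albumin promoter of hepatocytes, so that the other cells of their livers keep the gene. The control diet held 10 kcal% fat and the high-fat diet 32.5 kcal% fat, and the mice ate them freely for 16 weeks from 8 weeks of age. There were 4 FF CD and 5 LKO HFD mice, male as far as the study's text describes its mice. The other 9 mice of the series, 5 FF mice on the high-fat diet (FF HFD) and 4 LKO mice on the control diet (LKO CD), entered the fits for their share of the spread. Both the genotype and the diet differ between LKO HFD and FF CD mice, so that their parts in a difference cannot be told apart within this comparison.

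SAPS3 is a regulatory subunit that brings the catalytic subunit of protein phosphatase 6 to its substrates, and AMPK, the kinase that senses low cellular energy, is the substrate that the study addresses. Liver takes up fatty acids, oxidizes them in mitochondria and peroxisomes, makes new fatty acids from sugar, and stores what remains as triglyceride droplets. Fatty acids activate PPARα, a nuclear receptor that switches on the genes of their own oxidation, whereas insulin and glucose switch on the genes of fatty acid synthesis through SREBP1c and ChREBP. Glucose-6-phosphatase releases free glucose from the liver and is encoded by G6pc.

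The libraries held 23.4 to 37 M reads, as computed from the steps between low values, with 23.4 to 32.1 M in FF CD and 24.5 to 33.8 M in LKO HFD mice. At the lowest depth, 1 RPKM corresponds to about 99.6 reads for a gene of the median exon length. All 10 hepatocyte markers were tested, and albumin averaged 25682 RPKM in FF CD and 30408 in LKO HFD livers (Alb). Mice 3, 4 and 5 of the LKO HFD group stood apart from the other mice on the third principal component, which held 13.6% of the variance. They lay at 25.2, 24.8 and 14.8, LKO HFD mice 1 and 2 at -2.8 and 4.02, and no other mouse above -0.25. Where values below are said to follow these 3 mice, the fold change or the count of calls without them is given as well. Nothing in the labels says how the mice were distributed over litters, cages or days, so that p-values measure only the spread between these mice.

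Ppp6r3 itself checks the labels. Its RPKM was 8.38, 8.82, 11 and 9.17 in the FF CD mice and 4.22, 4.42, 4.87, 4.71 and 4.77 in the LKO HFD mice, with no overlap. The mean fell from 9.34 ± 1.14 (SD, n = 4) to 4.6 ± 0.271 (SD, n = 5), and the log2 fold change on log2(RPKM + 1) was -0.88 (SE 0.07, 95% confidence interval -1.03 to -0.73, adjusted p = 2.35e-06, limma). The exact two-sided permutation p was 0.0159, the smallest that 5 against 4 mice can give. The gene lies on chromosome 19 at 3454928 to 3575749 (minus strand, mm10), and RPKM is given for the whole gene and not for the deleted exons. Of the 7 tested genes of the PP6 phosphatase, which include its catalytic subunit, the SAPS subunits and the ankyrin scaffolds, Ppp6r3 was the 1 that passed the test, while Ppp6c had a log2 fold change of -0.07 (adjusted p = 0.676) and Ppp6r2, which encodes SAPS2, had one of 0.37 (adjusted p = 0.00543), below the fold threshold.

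Of the 9 tested genes of AMPK subunits and upstream kinases, 1 passed. Camkk2, the calcium-dependent kinase that can phosphorylate AMPK, was at 1.22, 1.01, 1.17 and 0.935 RPKM in FF CD and at 1.89, 2.34, 3.81, 2.92 and 2.58 RPKM in LKO HFD livers. All 5 LKO HFD mice lay above each of the other 13 mice of the series. Its log2 fold change was 0.81 (SE 0.13, adjusted p = 0.00148). LKO HFD mice 3, 4 and 5 were the highest, and without them the log2 fold change of Camkk2 was 0.58 (adjusted p = 0.0316), below the fold threshold. The catalytic subunits Prkaa1 and Prkaa2 had log2 fold changes of 0.08 (adjusted p = 0.573) and -0.27 (adjusted p = 0.0872).

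A gene is called here when its fold change on the log2(RPKM + 1) scale is over 1.5 and its p is under 0.05 after Benjamini-Hochberg adjustment for all 11090 genes. LKO HFD livers differed from FF CD livers by 352 called genes, 3.17% of those tested, of which 263 (2.37%) were higher and 89 (0.803%) lower. The leading increases were the fatty acid ω-hydroxylase Cyp4a14, the metallothioneins Mt1 and Mt2, and Cyp4a10. The leading decreases were the urinary protein gene Mup12, the male-biased Moxd1, Mup15, the lipogenic Thrsp and G6pc. In 67 genes the increase was over 1 on the log2 scale, and in 39 the decrease was. The adjusted p alone was under 0.05 in 1160 genes. The 5 and 4 values did not overlap in 269 of the called genes (209 higher and 60 lower), beside 1208 (10.9%) of all tested genes.

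The split between higher and lower depends on the scale. The median log2 fold change of all tested genes was 0.10, and more genes reached 1 RPKM in LKO HFD (9554 to 9965) than in FF CD mice (9311 to 9496), without overlap. After each mouse was centred on the median of its genes, 117 genes (1.06%) were called higher and 137 (1.24%) lower. The 117 were all among the 263 higher genes, and all 89 lower genes were called again. The part of this shift in the other increases was not tested, and the genes below that lose their call with centring are named as such.

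**Figure D1:**
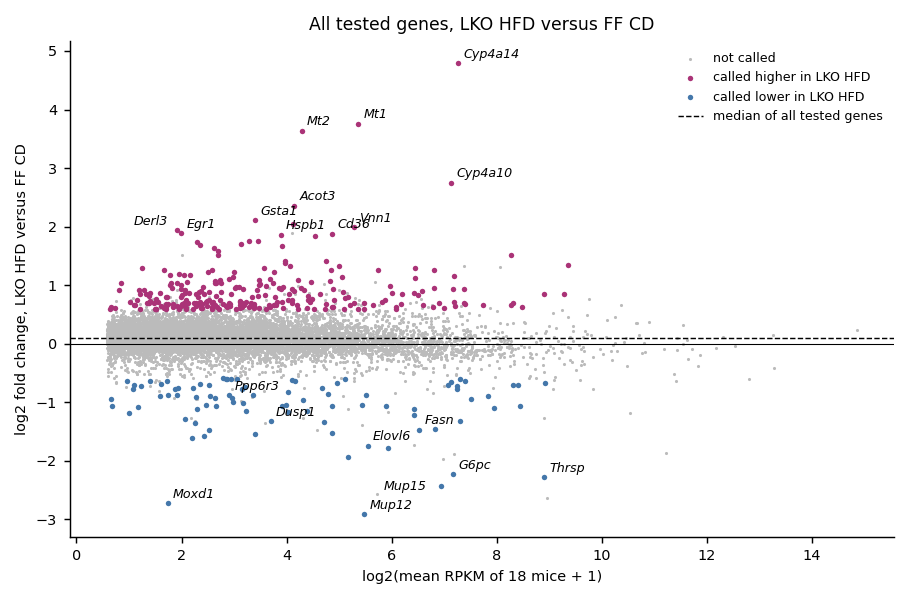
Each point is 1 of 11090 tested genes, with its mean level over 18 mice on the x axis (log2 of RPKM + 1) and its log2 fold change in LKO HFD over FF CD livers on the y axis. The 263 genes called higher reach 4.79 (Cyp4a14), the 89 called lower reach -2.91 (Mup12), and the dashed line marks the median of 0.10.

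Genes activated by PPARα formed the group with the most calls. Of 39 tested PPARα targets 23 were called higher and none lower, and 34 had an unadjusted p under 0.05 with a positive sign. Their median log2 fold change was 0.85, beside 0.10 for all tested genes, and with centring 20 were called and the median was 0.72. Cyp4a14 (chromosome 4, 115486200 to 115496142, minus strand) was at 3.18, 3.22, 2.19 and 12.1 RPKM in FF CD and at 84.3, 146, 257, 342 and 55 RPKM in LKO HFD livers. The lowest LKO HFD mouse was above the highest FF CD mouse, and the means of 5.18 ± 4.66 (SD, n = 4) and 177 ± 120 (SD, n = 5) differed 34.1 times. The log2 fold change was 4.79 (SE 0.51, adjusted p = 8.48e-05, limma).

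Cyp4a10, a second ω-hydroxylase, was at 5.55 to 33.3 RPKM in FF CD and at 98.1 to 165 RPKM in LKO HFD livers, a log2 fold change of 2.75 (SE 0.35, adjusted p = 0.000637). Cyp4a31 (log2 fold change 1.69) and Cyp4a32 (1.09) also rose. The Cyp4a genes are near-identical copies that can share reads, so that their separate values are uncertain. Vnn1, a pantetheinase, rose from 11.3, 10.3, 3.57 and 13.7 RPKM to 45.8, 43.5, 44.8, 27.7 and 32.4 RPKM, with no overlap and a log2 fold change of 1.99 (SE 0.29, adjusted p = 0.00142). The acyl-CoA thioesterases, which release fatty acids from coenzyme A, rose together with log2 fold changes of 2.36 (Acot3), 2.05 (Acot1), 1.70 (Acot2) and 0.95 (Acot4). Acot3 was at 0.513 to 3.75 RPKM in FF CD and 6.48 to 23.9 RPKM in LKO HFD mice. These thioesterases are also close copies of each other. Ppara itself had a log2 fold change of 0.41 (adjusted p = 0.0299), below the fold threshold.

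Of 23 tested genes of peroxisomal oxidation 8 were called higher and none lower (median log2 fold change 0.42, and 5 called with centring). Crot, which makes carnitine esters of medium-chain acyl groups for export from the peroxisome, was at 97.4, 111, 63.9 and 66.7 RPKM in FF CD and at 169.6, 161, 244, 242 and 136 RPKM in LKO HFD livers, and rose by 1.16 on the log2 scale (SE 0.20, adjusted p = 0.00292). Abcd2, a peroxisomal fatty acid transporter, rose by 1.08, the proliferation factor Pex11a by 0.98 and the bifunctional enzyme Ehhadh by 0.87. Of 19 genes of mitochondrial β-oxidation 3 were called higher, namely the carnitine transporter Slc22a5 (log2 fold change 1.02), the dehydrogenase Acadm (0.64) and the carnitine acyltransferase Cpt2 (0.59), and 13 had an unadjusted p under 0.05 with a positive sign. With centring Slc22a5 was the 1 that remained called. Cpt1a, the gated entry of fatty acids into mitochondria, had a log2 fold change of 0.53 (adjusted p = 0.0115), under the fold threshold. Of 8 genes of ketogenesis and its control, the hormone Fgf21 was the 1 that was called.

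Some genes of fat uptake and storage rose. Of 21 tested genes of lipid droplets and lipases 7 were called higher and 1 lower, with a median log2 fold change of 0.52 and 5 higher calls with centring. Plin2, the main droplet coat protein of hepatocytes, was at 136, 189, 75.5 and 121 RPKM in FF CD and at 416, 261, 467, 296 and 383 RPKM in LKO HFD livers, and rose by 1.52 on the log2 scale (SE 0.28, adjusted p = 0.00411). Cidec, which fuses droplets, was at 0.479, 1, 0.633 and 0.764 RPKM in FF CD and at 10.8, 2.64, 5.43, 2.18 and 6.12 RPKM in LKO HFD livers, a log2 fold change of 1.75 (SE 0.43, adjusted p = 0.0167). Its mean was 28.1 ± 14.2 RPKM (SD, n = 5) in FF HFD livers and 5.44 ± 3.45 (SD, n = 5) in LKO HFD livers, with LKO HFD mouse 1 above the lowest FF HFD mouse at 10.1 RPKM. The fatty acid transporter Cd36 rose by 1.88 (SE 0.37, adjusted p = 0.00579), from 2.33 to 5.69 RPKM in FF CD to 37.1, 28.4, 11.6, 6.98 and 17.1 RPKM in LKO HFD livers, with the lowest value in mouse 4.

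The lipase inhibitor G0s2 rose by 1.29, the coat protein Plin4 by 1.18, the hormone-sensitive lipase Lipe by 0.74 and the droplet dehydrogenase Hsd17b13 by 0.66, and Plin4 and Hsd17b13 lost their calls with centring. Of 17 genes of fatty acid uptake and binding, Cd36 and Fabp4 rose and Fabp5 fell. Fabp4, a fatty acid binding protein of adipocytes and macrophages, had a log2 fold change of 1.01 (adjusted p = 0.0296) that lost its call with centring. Fabp5 had one of -1.79 (SE 0.55, adjusted p = 0.0462), and its call was lost without any of 9 single mice. Of the 8 adipocyte markers 4 were tested, of which Cidec and Fabp4 were called, and Lep, Retn and Plin1 stayed below 0.5 RPKM in every mouse. The summed level of these markers ranged from 917 to 1213 RPKM in FF CD and from 740.1 to 1557 RPKM in LKO HFD livers. The list's part in the result was not tested. In bulk liver, more cells of a type and more RNA per cell cannot be told apart.

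Of 25 tested genes of de novo lipogenesis, by which the liver makes fat from sugar, 10 were called lower and none higher, 12 and 0 had an unadjusted p under 0.05, and the median log2 fold change was -0.50 (-0.62 with centring, with the same count). The called genes are the glycolytic Pklr, the citrate lyase Acly, the acetyl-CoA carboxylase Acaca, the fatty acid synthase Fasn, the elongase Elovl6, the phosphatidate phosphatase Lpin1, Pnpla3, and the regulators Srebf1, Thrsp and Mid1ip1. Without LKO HFD mice 3, 4 and 5 Pklr, Acly, Acaca and Elovl6 kept their calls. The log2 fold change of Srebf1 then went from -1.04 to -0.34 (adjusted p = 0.5) and that of Thrsp from -2.28 to -1.41 (adjusted p = 0.0655). Fasn (-1.51), Lpin1 (-1.43), Pnpla3 (-1.56) and Mid1ip1 (-0.64) also lost their calls. Thrsp (chromosome 7, 97412938 to 97417730, minus strand) was at 816, 1337, 585 and 534 RPKM in FF CD and at 421, 197, 116, 49.1 and 200.2 RPKM in LKO HFD livers. The groups did not overlap, and the log2 fold change was -2.28 (SE 0.44, 95% confidence interval -3.21 to -1.34, adjusted p = 0.00538).

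Elovl6 fell from 98.6, 89.8, 67.4 and 41 RPKM to 19.2, 16.3, 26.9, 18.7 and 22.6 RPKM, by 1.74 on the log2 scale (SE 0.26, adjusted p = 0.00144). Acly fell from 173, 275, 159.7 and 87.6 RPKM to 70.1, 51.6, 71.8, 46.5 and 55.2 RPKM, by 1.45 (SE 0.27, adjusted p = 0.00392). FF CD mouse 4 was the lowest of its group in both. Fasn was at 214, 199, 118 and 71.3 RPKM in FF CD and at 55.3, 41.1, 90.6, 43.7 and 31.1 RPKM in LKO HFD livers, so that mouse 3 of LKO HFD lay above mouse 4 of FF CD. Its log2 fold change was -1.47 (SE 0.33, adjusted p = 0.0112). Acacb, the carboxylase whose malonyl-CoA restrains β-oxidation, did not pass and lay at 17.5 to 22.6 RPKM in FF CD and 14.7 to 29.9 RPKM in LKO HFD livers, a log2 fold change of 0.07 (95% confidence interval -0.38 to 0.51, adjusted p = 0.875). The desaturase Scd1 had a log2 fold change of -0.64 (adjusted p = 0.167). Of 11 desaturases and elongases Elovl6 was the 1 that was called.

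G6pc led the genes of glucose handling. It lies on chromosome 11 at 101367561 to 101377903 (plus strand) and was at 253, 221, 256 and 197 RPKM in FF CD and at 63.2, 45.9, 48.9, 49.1 and 37.1 RPKM in LKO HFD livers. All 5 LKO HFD mice lay below each of the other 13 mice. The mean fell from 232 ± 28.3 (SD, n = 4) to 48.8 ± 9.39 RPKM (SD, n = 5), a log2 fold change of -2.23 (SE 0.16, 95% confidence interval -2.58 to -1.89, adjusted p = 5.53e-07, limma). LKO CD mice averaged 138 ± 24 (SD, n = 4) and FF HFD mice 166 ± 35 RPKM (SD, n = 5). Of 15 genes of gluconeogenesis 3 were called lower (G6pc, Sds and Tat) and none higher, and 1 had an unadjusted p under 0.05 with a positive sign. Pck1, which makes phosphoenolpyruvate, had a log2 fold change of -0.62 (adjusted p = 0.104). Of 23 genes of glycolysis and glycogen 3 were called lower, namely Pfkfb3 (log2 fold change -1.29), Pklr (-0.95) and the glycogen-targeting phosphatase subunit Ppp1r3b (-0.87).

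**Figure D2:**
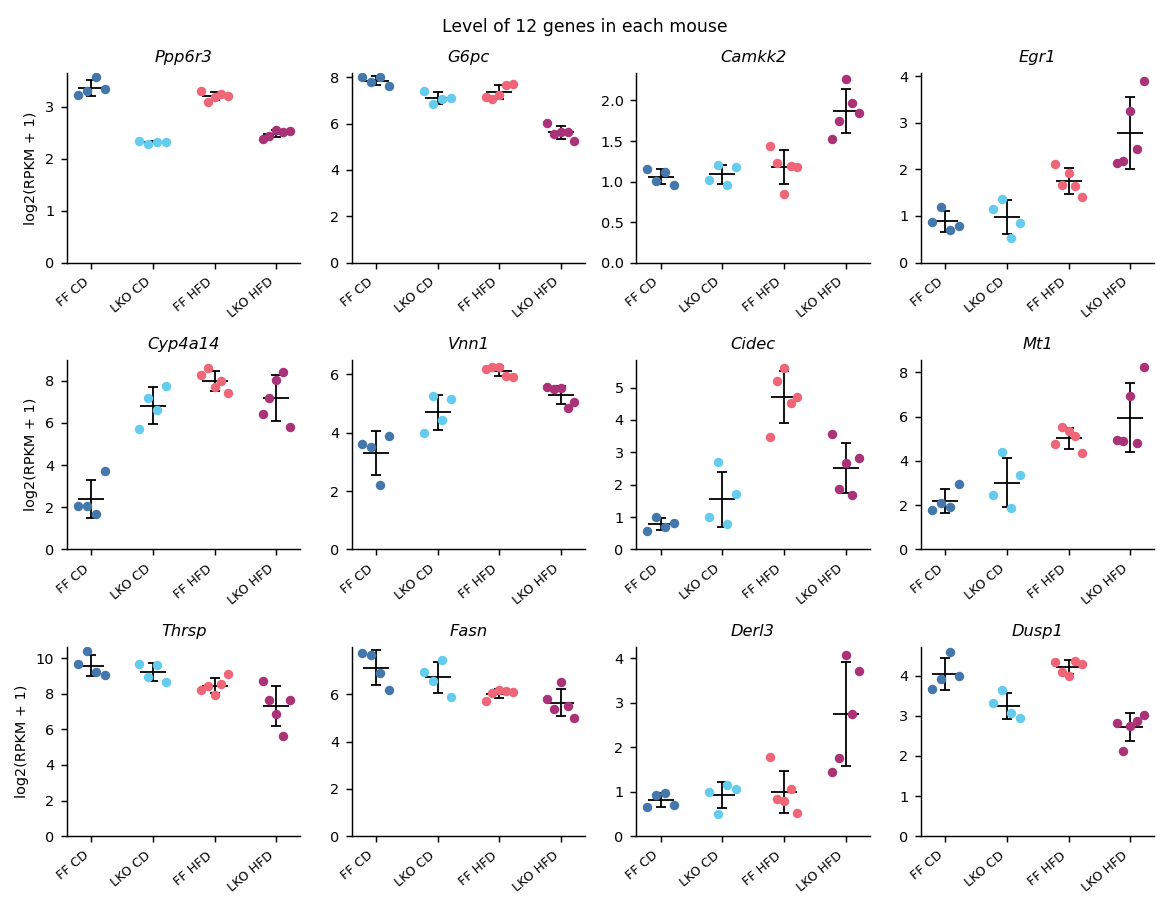
Each point is 1 mouse, with its log2(RPKM + 1) on the y axis, and the bar and whiskers give the mean and SD of each group (FF CD and LKO CD n = 4, FF HFD and LKO HFD n = 5). G6pc is lowest and Camkk2 and Egr1 are highest in the 5 LKO HFD mice, the means of Cidec and Vnn1 in LKO HFD lie between those of FF CD and FF HFD, and Derl3 and Mt1 spread widely within LKO HFD.

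Metallothioneins, small proteins that bind zinc and copper, gave the largest increases after Cyp4a14. The promoters of both genes from RefSeq (GRCm38.p6, both on the plus strand of chromosome 8) are printed because both genes rose together and because a metal response element, the binding sequence of the zinc sensor MTF1, is well known in them. The Mt1 window lies at chr8:94178839-94179138 and the Mt2 window at chr8:94172368-94172667. Capitals mark matches to TGCACNC or TGCGCNC on either strand.
Mt1: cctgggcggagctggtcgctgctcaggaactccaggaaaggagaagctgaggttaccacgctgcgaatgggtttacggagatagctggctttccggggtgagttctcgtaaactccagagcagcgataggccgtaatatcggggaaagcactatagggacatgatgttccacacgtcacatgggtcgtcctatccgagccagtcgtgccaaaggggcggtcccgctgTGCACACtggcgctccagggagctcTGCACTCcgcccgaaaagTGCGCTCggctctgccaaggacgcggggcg
Mt2: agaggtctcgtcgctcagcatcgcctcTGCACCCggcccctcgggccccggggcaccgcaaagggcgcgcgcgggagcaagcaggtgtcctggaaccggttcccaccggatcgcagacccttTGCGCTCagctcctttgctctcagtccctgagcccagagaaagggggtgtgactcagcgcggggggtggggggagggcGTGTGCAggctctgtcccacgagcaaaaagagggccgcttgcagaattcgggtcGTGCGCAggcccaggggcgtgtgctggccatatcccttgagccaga
Mt1 held 3 matches and Mt2 held 4, which do not overlap each other. At least 1 match was found in 25.7% and at least 3 in 1.97% of 32851 windows of the same length and position at 27025 genes. A match describes the letters and not a bound site.

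Mt1 was at 2.41, 3.24, 2.76 and 6.84 RPKM in FF CD and at 29.4, 28.5, 119, 26.7 and 298 RPKM in LKO HFD livers. Mt2 was at 0.729, 1.51, 0.384 and 1.84 RPKM in FF CD and at 10.4, 10.7, 42.6, 9.73 and 167 RPKM in LKO HFD livers. In both genes mouse 5 was highest and mouse 3 second, and the lowest LKO HFD mouse lay above all FF CD mice. The log2 fold changes were 3.76 (SE 0.62, adjusted p = 0.00238) for Mt1 and 3.64 (SE 0.63, adjusted p = 0.00332) for Mt2. The acute phase gene Saa1 was at 61.4, 1434, 154, 37.2 and 796 RPKM in the same LKO HFD mice in order, so that mouse 2 was highest there. Of the 7 tested genes of metallothioneins and zinc, the importer Slc39a14 was also called higher (log2 fold change 0.59, adjusted p = 0.0492), and its call was lost with centring. It followed LKO HFD mice 3, 4 and 5 (59.6, 51.4 and 54.1 RPKM, against 28.6 and 33.4 RPKM in mice 1 and 2). Without those 3 mice its log2 fold change was 0.10 (adjusted p = 0.718).

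A second group of genes was high in part of the LKO HFD mice. Of 29 genes of the unfolded protein response, by which the endoplasmic reticulum answers a load of misfolded protein, 3 were called higher (Derl3, Pdia4 and Hsp90b1) and 1 lower (Dnajb9), with a median log2 fold change of 0.24. The call of Dnajb9 was lost without any of 10 single mice, and its log2 fold change was then -0.36 at the nearest to 0 (without FF CD mouse 1, adjusted p = 0.111). The promoters of Derl3 (chr10:75893148-75893447, plus strand) and Hsp90b1 (chr10:86705395-86705694, minus strand) from RefSeq (GRCm38.p6) are printed because the ER stress element, CCAAT and CCACG with 9 bases between them, is the sequence through which ATF6 acts on such genes. Capitals mark its matches on either strand.
Derl3: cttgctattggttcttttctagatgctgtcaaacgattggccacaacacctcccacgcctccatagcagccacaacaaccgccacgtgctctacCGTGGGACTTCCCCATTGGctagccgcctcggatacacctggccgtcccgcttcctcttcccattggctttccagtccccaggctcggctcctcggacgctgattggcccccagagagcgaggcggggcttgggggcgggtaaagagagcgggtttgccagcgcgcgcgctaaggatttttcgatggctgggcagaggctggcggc
Hsp90b1: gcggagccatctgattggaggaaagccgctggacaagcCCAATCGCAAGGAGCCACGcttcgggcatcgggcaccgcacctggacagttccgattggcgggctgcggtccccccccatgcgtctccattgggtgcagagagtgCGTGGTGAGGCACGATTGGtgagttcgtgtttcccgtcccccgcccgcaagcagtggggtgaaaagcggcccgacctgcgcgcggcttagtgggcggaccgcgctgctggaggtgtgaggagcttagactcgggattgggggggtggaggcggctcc
Derl3 held 1 match and Hsp90b1 held 2, none of which overlaps a metal response element, beside 39 of 32851 windows (0.119%) with at least 1. The window of Hspa5, which was not called, held 1 as well. The windows of Pdia4 and Dnajb9 held none, which says only that these letters are not in them.

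Derl3, a factor that returns misfolded proteins for degradation, was at 0.58, 0.891, 0.954 and 0.616 RPKM in FF CD and at 1.71, 2.39, 15.8, 5.76 and 12.2 RPKM in LKO HFD livers. LKO HFD mice 3, 4 and 5 lay above all other mice, and mice 1 and 2 were below the highest FF HFD mouse at 2.42. The log2 fold change was 1.94 (SE 0.41, adjusted p = 0.00775) with all mice and 0.79 (adjusted p = 0.089) without mice 3, 4 and 5. Hsp90b1, a chaperone, was at 241 to 313 RPKM in FF CD and at 274, 340.2, 709, 359.9 and 545 RPKM in LKO HFD livers, with overlap. Its log2 fold change was 0.66 (adjusted p = 0.0435), 0.20 without the 3 mice, and its call was also lost with centring, as was that of the disulfide isomerase Pdia4 (0.85, adjusted p = 0.0224, and 0.40 without the 3 mice). Hspa5, the sensor chaperone BiP, had a log2 fold change of 0.31 (adjusted p = 0.457). Without mice 3, 4 and 5, none of the 29 genes was called.

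Stat3 and Steap4, which were named after their values were seen, were also highest in these mice. Stat3, a transcription factor of cytokine signalling, was at 15.4, 19.2, 12.6 and 10.9 RPKM in FF CD and at 15.8, 19.9, 41.2, 37.3 and 32.8 RPKM in LKO HFD livers (log2 fold change 0.91, adjusted p = 0.018). It was 0.30 (adjusted p = 0.353) without the 3 mice, and the call was also lost without LKO HFD mouse 3 or FF CD mouse 3 or 4 alone (adjusted p up to 0.057). Steap4, a metalloreductase, was at 32.5, 37.8, 32 and 34 RPKM in FF CD and at 36.2, 55.9, 110.5, 92.7 and 179.9 RPKM in LKO HFD livers (log2 fold change 1.25, adjusted p = 0.0138), and its log2 fold change was 0.39 (adjusted p = 0.162) without the 3 mice. In both, mouse 1 of LKO HFD lay within the range of FF CD.

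Other stress pathways were also called in part. Of 20 genes of the integrated stress response 4 were called higher and none lower, of which Fgf21 (log2 fold change 1.59), Gdf15 (1.29) and Atf5 (0.90) led. Fgf21 was at 1.25 to 3.13 RPKM in FF CD and at 7.06, 4.33, 15.1, 4.34 and 13.8 RPKM in LKO HFD livers. The amino acid gene Asns, a main target of ATF4, had a log2 fold change of -0.00 (adjusted p = 1). Of 18 NRF2 targets 5 were called higher and 1, G6pdx, lower. Gsta1, a glutathione transferase, was at 0.383 to 0.799 RPKM in FF CD and at 5.4, 1.74, 5.61, 11.4 and 7.32 RPKM in LKO HFD livers, a log2 fold change of 2.11 (SE 0.45, adjusted p = 0.00803). Ephx1 rose by 0.94, Srxn1 by 0.72, and Hmox1 and Nqo1 by 0.71 and 0.67, the last pair losing its calls with centring. Of 14 p53 targets 3 were called higher, Ccnd1 (log2 fold change 1.42), Cdkn1a (0.76) and Fas (0.73). Ccnd1 was at 4.1 to 14 RPKM in FF CD and at 12.9, 16, 35.4, 22.3 and 21.9 RPKM in LKO HFD livers. Without LKO HFD mice 3, 4 and 5 the log2 fold changes were 0.94 for Ccnd1 (adjusted p = 0.146), 0.64 for Cdkn1a (adjusted p = 0.216) and 0.56 for Fas (adjusted p = 0.0413). None of these 3 genes was then called. Cdkn1a, an inhibitor of the cell cycle, was at 0.147 to 0.667 RPKM in FF CD and 0.771 to 1.75 RPKM in LKO HFD livers, and its call was lost with centring. Of 13 cell cycle genes Ccnd1 was called higher and Rrm2 (-0.76) lower.

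Egr1, an early response transcription factor on chromosome 18, was at 0.822, 1.3, 0.612 and 0.732 RPKM in FF CD and at 3.37, 3.51, 8.5, 4.41 and 13.8 RPKM in LKO HFD livers, above all other 13 mice, with a log2 fold change of 1.89 (SE 0.29, adjusted p = 0.00144). The small heat shock protein Hspb1 rose by 1.86 (SE 0.32, adjusted p = 0.00296), with 11.5 and 10.2 RPKM in LKO HFD mice 1 and 2 and 45.7, 31.1 and 24.9 RPKM in mice 3, 4 and 5. Without these 3 mice the log2 fold change of Hspb1 was 0.95 (adjusted p = 0.0314) and its call remained.

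Of 33 interferon response genes 7 were called higher and none lower, all 33 had a positive log2 fold change (32 with centring), and the median was 0.49 (0.36 with centring, with 4 called). Zbp1, a sensor of nucleic acids, was at 2, 1.77, 1.3 and 1.51 RPKM in FF CD and at 2.31, 4.67, 7.37, 5.66 and 6.22 RPKM in LKO HFD livers, a log2 fold change of 1.18 (SE 0.22, adjusted p = 0.00433). The GTPases Ifi47 and Igtp rose by 0.97 and 0.93. Without mice 3, 4 and 5 none of the 33 was called, and Zbp1 had a log2 fold change of 0.72 (adjusted p = 0.095). The direction held without them, since 32 of the 33 genes were positive, with a median of 0.35. Of 24 acute phase genes 2 were called higher, Lbp (log2 fold change 1.06, adjusted p = 0.00679) and Il1rn (0.92, adjusted p = 0.00378), while Saa1 ranged from 13.3 to 973 RPKM within FF CD and had a log2 fold change of 1.31 (SE 1.14, adjusted p = 0.484). Without mice 3, 4 and 5 Lbp was at 0.54 (adjusted p = 0.152) and Il1rn at 0.69 (adjusted p = 0.055), and neither was called. None of 18 antigen presentation genes was called by limma, and 4 had an unadjusted p under 0.05 with a positive sign and 1 with a negative one.

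Markers of other liver cells gave few calls. Of 13 tested markers of Kupffer cells and macrophages none was called by limma, 2 had an unadjusted p under 0.05, all 13 had a positive sign (12 with centring), and the median log2 fold change was 0.39. Their summed level was 108 to 146 RPKM in FF CD and 137 to 232 RPKM in LKO HFD livers. Of 12 markers of sinusoidal endothelium none was called, 5 had an unadjusted p under 0.05, all were positive (11 with centring, median 0.44), and the sums were 29.9 to 67.6 and 58.2 to 83.1 RPKM. None of 12 stellate cell markers and of 4 cholangiocyte markers was called, with 0 and 1 unadjusted p under 0.05. Both tested neutrophil markers, S100a8 and S100a9, were called higher (0.84 and 0.85), lost their calls with centring, and summed with their list to 0.971 to 2.12 RPKM in FF CD and 3.16 to 6.27 RPKM in LKO HFD livers, while the 6 other neutrophil markers, Ly6g and Mpo among them, were below 0.5 RPKM in every mouse. Of the T and NK cell, B cell, erythroid and acinar markers, 1, 3, 5 and 1 were tested and none was called or had an unadjusted p under 0.05. The part of these cells in the interferon and acute phase genes was not tested. Of 26 genes of the extracellular matrix the basement membrane collagen Col4a1 was called higher (log2 fold change 0.80, lost with centring), and Col1a1 had a log2 fold change of 0.00 (adjusted p = 0.994).

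**Figure D3:**
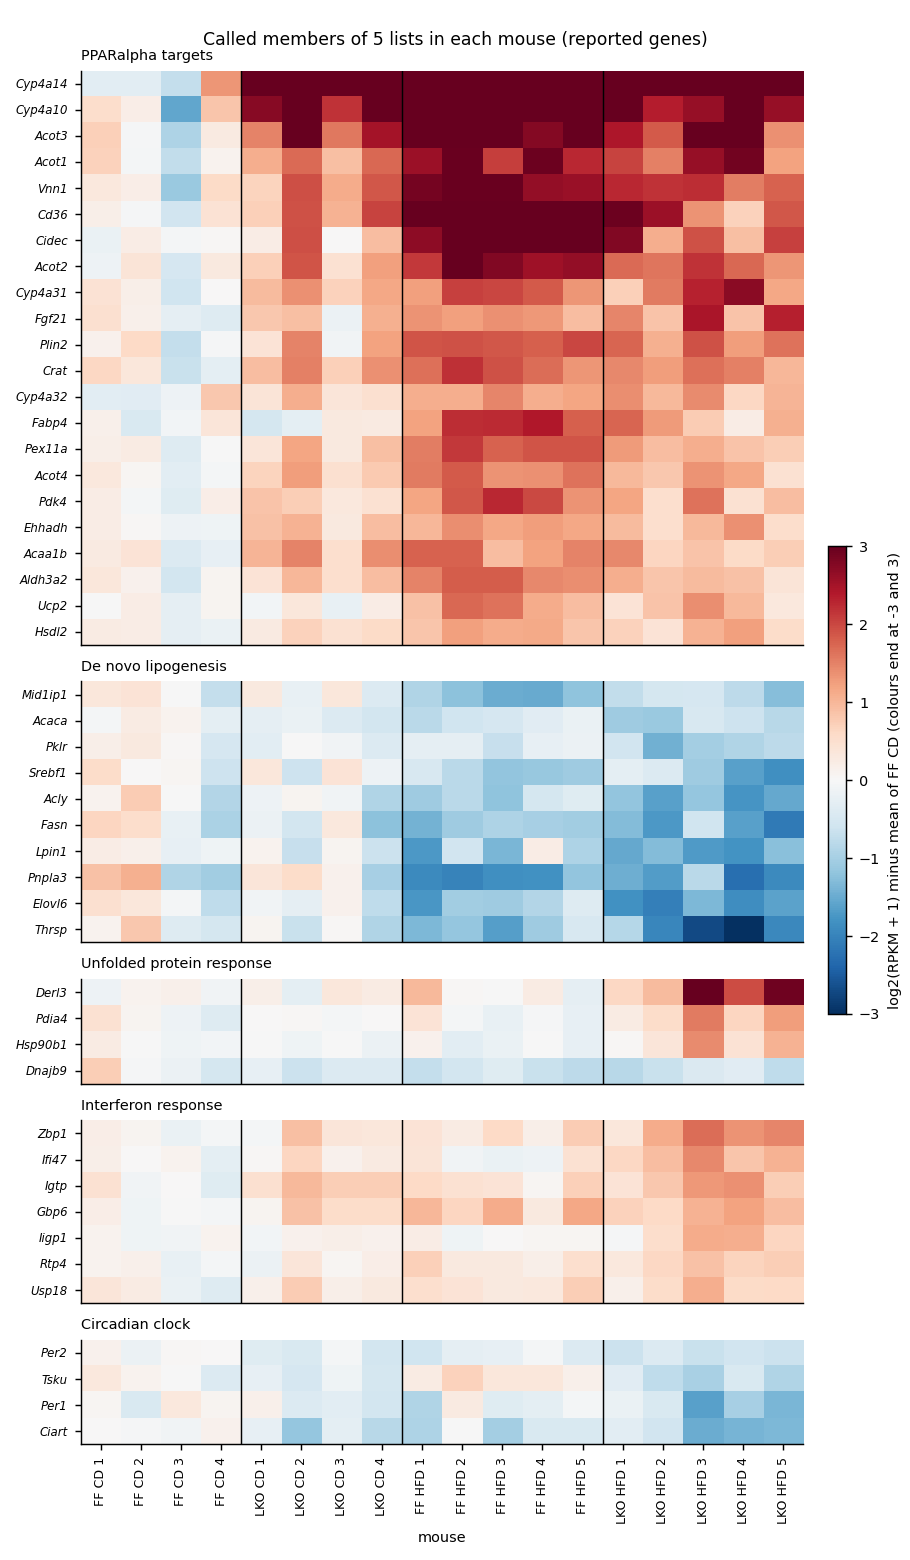
Rows are the called and reported members of 5 lists, columns are the 18 mice in their 4 groups (black lines part the groups), and the colour is log2(RPKM + 1) minus the mean of FF CD with its ends at -3 and 3. PPARα targets are above the FF CD mean in all 5 LKO HFD mice, Derl3, Zbp1, Ciart and Per1 differ most from FF CD in LKO HFD mice 3, 4 and 5, and Dnajb9 and Per2 do not show this order.

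Sex-biased genes of the liver differ between males and females under the control of pulsed growth hormone. Of 48 tested male-biased genes 10 were called lower and none higher (25 and 0 at an unadjusted p under 0.05), with a median log2 fold change of -0.65 and 13 called lower with centring. Mup12, a major urinary protein, was at 197, 136, 149 and 62.7 RPKM in FF CD and at 24.9, 9.06, 10.7, 8.14 and 48.5 RPKM in LKO HFD livers, a log2 fold change of -2.91 (SE 0.76, adjusted p = 0.0222). The calls were lost for Mup12 without FF CD mouse 1, 2 or 3 or LKO HFD mouse 3 (adjusted p up to 0.0604), and for Mup15 without FF CD mouse 2 or 4 (adjusted p up to 0.076). Mup15 (log2 fold change -2.43), Mup16 (-1.94) and Mup13 (-1.32) fell as well, and since Mup genes are near-identical copies that share reads, their separate values are uncertain. Moxd1, a monooxygenase, was at 5.89, 24.7, 7.93 and 1.36 RPKM in FF CD and at 0.0096 to 0.928 RPKM in LKO HFD livers, a log2 fold change of -2.73 (SE 0.42, adjusted p = 0.00148). It was listed at 0 in all FF HFD mice and averaged 0.203 RPKM in LKO CD mice, so that it passed the filter of 0.5 RPKM only through FF CD, the group in which it was high. With Moxd1, 4 of the 89 lower genes (also Adgrf1, E030018B13Rik and Slc2a4) passed only in this way, and 3 of the 263 higher ones (Gadd45b, Slc13a5 and Slc37a1) passed only through LKO HFD, all but Moxd1 named after their values were seen. The steroid dehydrogenase Hsd3b5 had a log2 fold change of -1.16 (adjusted p = 0.0691), the protease inhibitor Serpina1e one of -1.18 (adjusted p = 0.106) and Selenbp2 one of -0.85 (adjusted p = 0.18). In Hsd3b5 the FF CD values (96.6 to 154 RPKM) lay above the LKO HFD values (44.3 to 73.5 RPKM). The same held for Serpina1e (3169 to 5356 and 1301 to 1867 RPKM). Both had an exact permutation p of 0.0159, and 10.9% of all tested genes did not overlap. Left out singly, FF HFD mouse 1, 2 or 3 gave Hsd3b5 a call and FF HFD mouse 2 gave Serpina1e one.

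Of 26 tested female-biased genes 9 were called higher and none lower (median log2 fold change 0.46, with 8 higher and 1 lower after centring). The list shares Cyp4a10, Cyp4a14, Acot3, Acot4 and Cd36 with the PPARα targets, and the others called are Abcd2, the P450 Cyp2a22 (lost with centring), the ligand gene Raet1d (log2 fold change 1.75) and the prolactin receptor Prlr. Prlr was at 1.26 to 4.77 RPKM in FF CD and 4.79 to 7.93 RPKM in LKO HFD livers (log2 fold change 1.04, SE 0.18, adjusted p = 0.00332). Cyp2b9, a female-predominant P450, averaged 0.0163 RPKM in FF CD and 0.497 RPKM in LKO HFD livers beside 69.3 RPKM in FF HFD livers, and its log2 fold change of 0.49 in LKO HFD over FF CD did not pass (adjusted p = 0.482). Of 18 genes of growth hormone signalling, Prlr and Stat5a (log2 fold change 0.68, lost with centring) were called higher.

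Of 37 tested genes of the urea cycle and amino acid breakdown 6 were called lower and none higher, 14 and 1 had an unadjusted p under 0.05, and the median log2 fold change was -0.25. Got1, the cytosolic aspartate aminotransferase, was at 115, 106, 118 and 123 RPKM in FF CD and at 87, 56.7, 37.1, 27.3 and 55.8 RPKM in LKO HFD livers, with the 2 lowest values in mice 3 and 4, and fell by 1.22 on the log2 scale (SE 0.25, adjusted p = 0.0068). Without LKO HFD mice 3, 4 and 5 the log2 fold change was -0.71 (adjusted p = 0.0894). The serine dehydratase Sds fell by 1.12, the tyrosine aminotransferase Tat by 1.06, the argininosuccinate lyase Asl by 0.73 and the carbamoyl phosphate synthetase Cps1 by 0.70. Tat and Cps1 are also the called genes among the 10 hepatocyte markers. Of 17 periportal genes 3 (Sds, Cps1 and Etnppl) were called lower and Hsd17b13 higher, and of 20 pericentral genes Tbx3 was called higher (lost with centring) and Cyp1a2 lower.

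Of 19 circadian clock genes 5 were called lower and none higher (8 and 1 at an unadjusted p under 0.05), with a median log2 fold change of -0.20. Ciart, a clock repressor, was at 11.8, 11.5, 10.7 and 13 RPKM in FF CD and at 9.29, 7.55, 3.52, 3.85 and 4.01 RPKM in LKO HFD livers. Mice 3, 4 and 5 were the lowest, and the log2 fold change of -1.02 (SE 0.25, adjusted p = 0.0171) was -0.44 (adjusted p = 0.317) without them. Per1 (-0.93) and Per2 (-0.59) also fell, and without these 3 mice none of the 19 genes was called. The hour at which each liver was taken is not given in the sources used here, and its part was not tested.

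The remaining groups held few calls. Of 24 genes of cholesterol synthesis 3 were called higher, the synthase Hmgcs1 (log2 fold change 1.25), Msmo1 (0.95) and the regulator Srebf2 (0.84), and Hmgcs1 and Msmo1 lost their calls with centring. Srebf2 was at 4.01 to 5.28 RPKM in FF CD and 7.4 to 13 RPKM in LKO HFD livers. Of 21 genes of bile acid synthesis and transport, the exporter Abcc3 rose by 1.33 (adjusted p = 0.00259) and the importer Slc10a1 fell by 0.71 (adjusted p = 0.00688), whereas Cyp7a1, the rate-limiting enzyme, had a log2 fold change of 0.40 (adjusted p = 0.313). Of 37 Cyp1 to Cyp3 enzymes 4 rose, led by Cyp2c38 (1.41) and Cyp3a11 (1.34), and Cyp1a2 (-0.71) and Cyp2c70 (-0.77) fell. Of 42 transferases of glutathione, glucuronic acid and sulfate 2 rose (Gsta1 and Mgst3, 1.14) and 3 fell (Ugt2b38 by 1.47, Ugt2b1 and Sult5a1). Of 30 nuclear receptors Pparg (0.88, lost with centring) and Nr1i3 (0.75) rose. In 44 genes of complement and coagulation C9 fell by 0.60, and in 10 of Serpina1 and Serpina3 the member Serpina3g rose by 0.79. Of 32 sphingolipid genes the hexosaminidase subunit Hexa (0.75) rose, of 23 retinoid genes Aldh1a1 rose (0.63, lost with centring) and Cyp26a1 fell by 0.90, and of 16 iron genes Hmox1 rose.

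No gene passed the test (limma) among 79 cytosolic ribosomal proteins, 76 respiratory chain subunits and 18 apolipoproteins. In the ribosomal proteins all 79 log2 fold changes were negative (median -0.17, from -0.52 to -0.02), with 10 at an unadjusted p under 0.05. In the respiratory chain 68 were negative (median -0.11), with 4 at an unadjusted p under 0.05. Under the 4 other scalings at most 2 ribosomal genes were positive, and with centring 1 was called lower. Without LKO HFD mice 3, 4 and 5 the direction did not hold, since 47 of the 79 ribosomal genes were positive (median 0.01) and the median of the respiratory chain was 0.05. In the apolipoproteins 3 positive and 1 negative genes had such a p, and Apoe, whose sign depends on the scale, had a log2 fold change of -0.04 as deposited and 0.21 with quantile normalization.

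**Figure D4:**
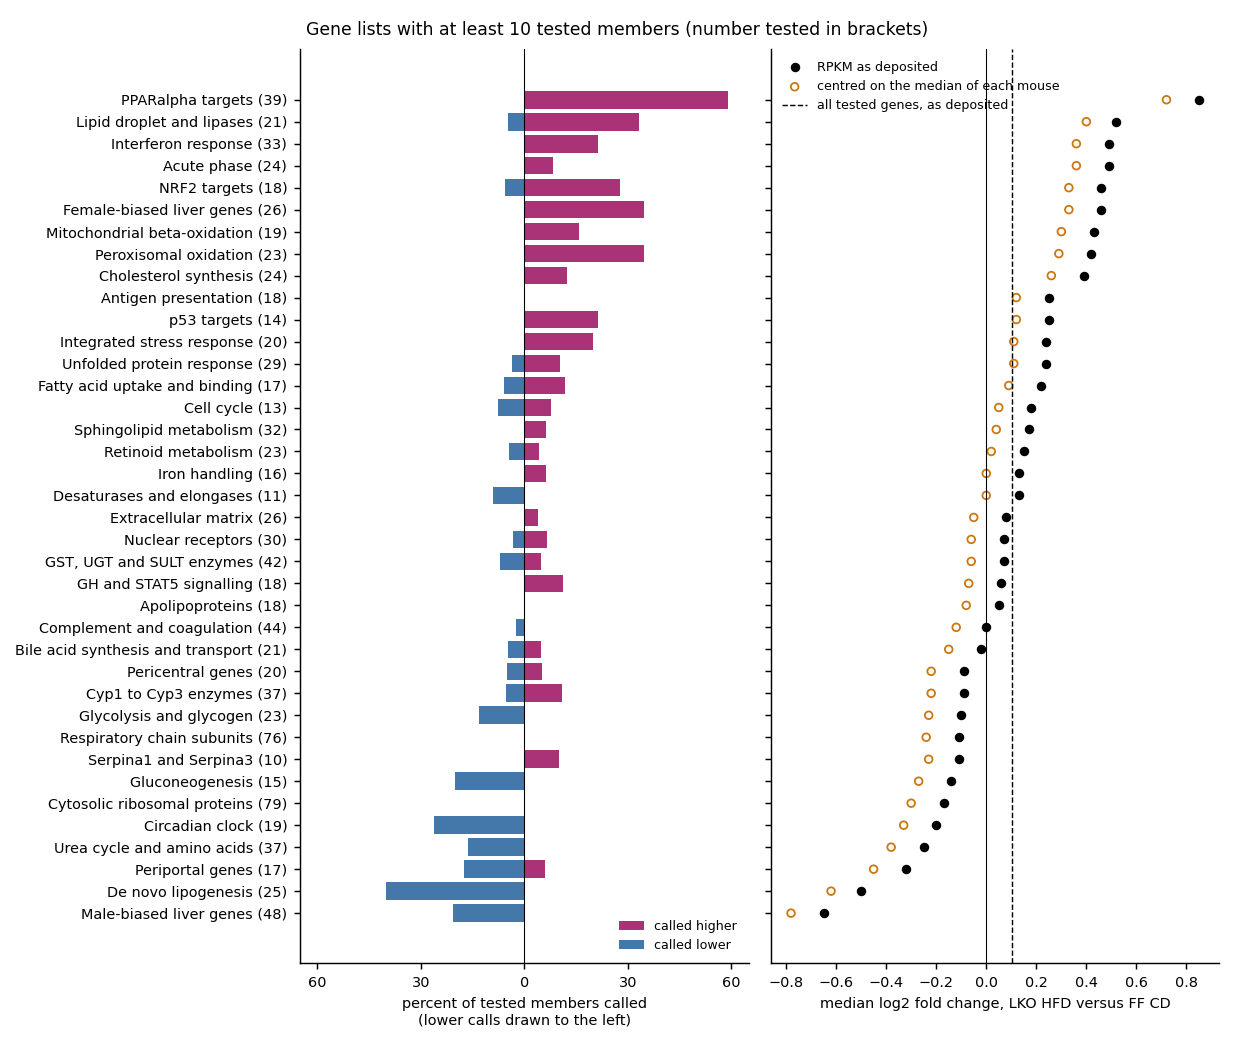
For each list with at least 10 tested members, bars give the percent of members called higher (right) or lower (left), and points give the median log2 fold change with RPKM as deposited (filled) and after centring each mouse (open). PPARα targets lead with 23 of 39 called higher and a median of 0.85, and male-biased genes have the lowest median at -0.65.

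Among the 12 leading decreases, 3 were in none of the lists. Hcn3, an ion channel, fell by 1.55 on the log2 scale (adjusted p = 0.00144), Carmil1, a regulator of actin, by 1.35 (adjusted p = 0.00253) and the predicted gene Gm4956 by 1.57 (adjusted p = 0.00259). The 12, like the 12 leading increases, were drawn from called genes without overlap between the groups, so that their lack of overlap follows from the choice.

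Few genes set LKO HFD mice apart from the whole series. All 5 lay above the other 13 mice in 24 tested genes (0.216%) and below them in 6 (0.0541%), and of these 3 and 2 were called. Beside Camkk2, Egr1 and G6pc the called ones are the gap junction gene Gjb2, with means of 137 RPKM in FF CD and 216 RPKM in LKO HFD (log2 fold change 0.68, adjusted p = 0.0112, lost with centring), and Gm35986, with means of 8.93 and 3.91 RPKM (log2 fold change -0.99, adjusted p = 0.0075). Gjb2 and Gm35986 were named after their values were seen. G6pc, Camkk2 and Egr1 stand here because the LKO HFD mice lay beyond all FF HFD and LKO CD mice in them. Their direction against either group was therefore fixed in advance, and no p-value is given for it. Against FF HFD mice the log2 fold changes were -1.74 for G6pc, 0.69 for Camkk2 and 1.02 for Egr1. Against LKO CD mice they were -1.48, 0.78 and 1.80. The lowest LKO HFD mouse was at 3.37 RPKM of Egr1 and the highest FF HFD mouse at 3.33 RPKM.

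The 9 mice outside this comparison allow a second one that shares no mouse with it, FF HFD against LKO CD, in which the diets differ the same way and the genotypes the opposite way. It called 321 genes higher (2.89%) and 85 lower (0.766%). Of the 263 genes called higher in LKO HFD over FF CD 87 (33.1%) were also called higher there, which is 27.1% of the 321, and none was called lower. Of the 89 called lower 17 (19.1%) were also called lower there, 20% of the 85, and 4 were called higher. The estimate of the spread is shared by both comparisons. The genes called higher had a median log2 fold change of 0.76 in LKO HFD over FF CD and of 0.47 in FF HFD over LKO CD, and those called lower had medians of -0.92 and -0.20, beside 0.10 and 0.035 for all tested genes.

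Some of the genes named above were also called in this second comparison, and others were not. Cd36 (log2 fold change 2.34), Cidec (3.15), Plin2 (1.15), Vnn1 (1.41), Mt1 (2.0) and Mt2 (2.62) were called higher there too. Cyp4a14 (1.19, adjusted p = 0.143), Fgf21 (0.59, adjusted p = 0.25), Derl3 (0.07, adjusted p = 0.934) and Zbp1 (0.05, adjusted p = 0.915) were not called, nor were G6pc (0.26, adjusted p = 0.329), Fasn (-0.68, adjusted p = 0.204) and Thrsp (-0.77, adjusted p = 0.285). The 4 genes called in opposite directions were Ppp6r3 (0.89), the phosphatase Dusp1, the carboxylesterase Ces2c and Tsku. Dusp1, which inactivates stress kinases, was at 11.7, 14.2, 23.1 and 14.8 RPKM in FF CD and at 6.05, 3.36, 5.7, 6.36 and 7.07 RPKM in LKO HFD livers (log2 fold change -1.32, SE 0.19, adjusted p = 0.00142), and at 14.8 to 19.4 RPKM in FF HFD and 6.68 to 11.5 RPKM in LKO CD livers (0.97, adjusted p = 0.0047). Dusp1 was named because it was called in opposite directions, so that higher values of FF mice in both pairs follow from that choice. Neither pair overlapped, and in the first pair 10.9% of all tested genes did not overlap. Between mice on the same diet, FF values were also higher. That difference passed the test on the high-fat diet (adjusted p = 9.95e-05, limma) and did not on the control diet (adjusted p = 0.123). Ces2c had log2 fold changes of -1.04 (adjusted p = 0.00734) and 0.87 (adjusted p = 0.0155), and Tsku of -0.68 (adjusted p = 0.0116) and 0.70 (adjusted p = 0.00845). Whether single genes differ between the 2 comparisons was not tested.

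**Figure D5:**
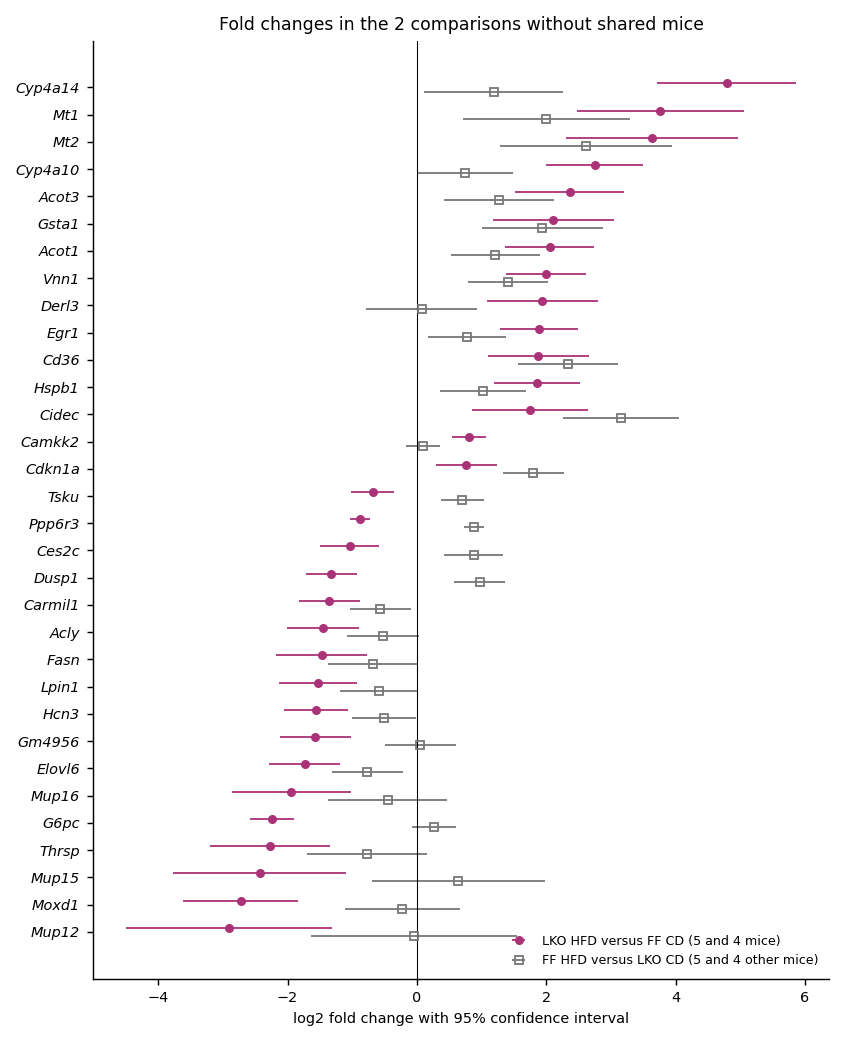
Filled points give the log2 fold change in LKO HFD over FF CD livers and open squares that in FF HFD over LKO CD livers, which come from other mice, with 95% confidence intervals (limma) for the 12 genes with the largest changes in each direction and 8 others. Ppp6r3, Dusp1, Ces2c and Tsku lie on opposite sides of 0, and Cidec and Cd36 lie further out in the second comparison.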

How the data were processed

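Liver RNA of 18 mice was sequenced, and per the labels the authors aligned the reads to mm10 with HISAT2 2.0.4 and used Partek. They deposited the RPKM of each gene in each mouse, which scales reads to gene length and library depth. The kit text of the labels names a small RNA protocol beside a standard RNA-seq protocol, and strand, gene annotation and what was done with multiply matching reads are not given in the sources used here. The RPKM were used as deposited. Depth was computed from the steps between low values of single-exon genes, of which 25 of 66 gave the same depth. Coordinates are from GENCODE vM21.

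Genes averaging at least 0.5 RPKM were fitted in limma 3.58.1 under R 4.3.3, with moderated variances that follow the mean level, on log2(RPKM + 1), with 1 coefficient for each of the 4 groups. Two-sided p-values received Benjamini-Hochberg adjustment for 11090 genes. Fold changes on this scale understate the change of genes with low values. Single genes were also tested by exact two-sided permutation of 5 against 4 mice in scipy 1.17.1. The fit was tested on simulated data. The members, lists and tests were chosen with earlier results of these data known. The genes named are Ppp6r3, the 12 largest changes in each direction among called genes without overlap and with a mean of at least 1 RPKM in the higher group, up to 3 called members of each list (otherwise its most abundant member), Fasn and Acacb, which the study names, and up to 3 genes called in the opposite direction in FF HFD over LKO CD. Further list members and genes said to be chosen later were added. As alternatives, the pseudocount (0.1), the filter (none, or 1 RPKM), the scaling (4 others), the variance model (no moderation, or no trend), the groups fitted (the compared pair alone), a block for the replicate number, calls by adjusted p without the fold, and the removal of each mouse were tried. Some genes that enter the counts are not reported here by name. Tables and figures were made with Python 3.11.15, pandas 2.3.3 and matplotlib 3.10.9.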

Additional observations from a re-analysis of the deposited data

Results flagged for a closer look

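Within the groups of 4 FF CD and 5 LKO HFD mice, 9 of 216 sets of values of the 108 named genes held 1 mouse far from the others by Dixon's test at the 95% level, which chance gives in about 1 in 20 sets. In FF CD mice these were Etnppl at 23.2 RPKM in mouse 4 (others 35.6 to 36.8), Il1rn at 0.674 RPKM in mouse 4 (others 0.341 to 0.359), Fas at 5.42 RPKM in mouse 1 (others 4.9 to 4.92), Nr1i3 at 25.5 RPKM in mouse 2 (others 38.2 to 41.3) and S100a8 at 0.981 RPKM in mouse 3 (others 0.603 to 0.636). In LKO HFD mice they were Cyp1a2 at 166 RPKM in mouse 2 (others 99.7 to 115), the elastase gene Cela1 at 3.89 RPKM in mouse 4 (others 8.22 to 10.7), Cyp2c38 at 16.6 RPKM in mouse 5 (others 23.5 to 25.2) and Moxd1 at 0.928 RPKM in mouse 5 (others 0.0096 to 0.104). No mouse was flagged more than 2 times.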

How the results depend on the processing

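LKO HFD over FF CD gave 352 called genes (263 higher, 89 lower). A pseudocount of 0.1 gave 619 (509 higher), and the adjusted p alone 1160 (993 higher, 167 lower). Median centring gave 117 higher and 137 lower, quantile normalization 145 higher, and no filter 59 lower. Leaving out single mice gave 231 to 397 genes, 172 to 307 higher and 58 to 106 lower, with the fewest calls without LKO HFD mouse 3, and 58 lower genes without FF CD mouse 1 or 3. Added after seeing the data, leaving out LKO HFD mice 3, 4 and 5 gave 206 calls (177 higher, 29 lower), and leaving out the mice with the highest Saa1 (FF CD 2, LKO HFD 2 and 5) gave 325 (278 higher, 47 lower). FF HFD over LKO CD gave 406 called genes (321 higher, 85 lower), 730 with a pseudocount of 0.1 (618 higher), 1248 with the adjusted p alone (953 higher, 295 lower), and 251 to 456 without single mice (199 to 360 higher, 52 to 96 lower), the fewest without LKO CD mouse 1. Replicate numbers were not taken to pair the mice, since the deviations of same-numbered mice correlated at -0.02, 0.054, 0.043 and 0.006 between FF CD and LKO HFD and at 0.245, 0.107, 0.332 and -0.173 between LKO CD and FF HFD, and 1 and 4 of 8 mice correlated best with their own number. The replicate number as a block gave 400 genes (306 higher, 94 lower) and, for Ppp6r3, a log2 fold change of -0.88. With it 6 of the 108 named genes lost their call (C9, Fabp4, Hsp90b1, Per1, Slc39a14 and Tat). Ppp6r3 kept its direction and call in every alternative. Of the 95 called genes among the 108 named, 33 lost their call without at least 1 single mouse and 61 under at least 1 other setting. Each of 6 or more mice, when left out singly, ended the calls of Hmgcs1, Slc39a14, Hsp90b1, Fabp5, Tat, Cdkn1a, Msmo1, Per1, Pparg, Ppp1r3b and S100a8, and also those of Dnajb9, Mid1ip1, Srebf1, Plin4 and Cyp2a22. No called gene among the 108 reversed under any alternative, and 8 genes without a call did. Acacb was -0.063 with centring, -0.034 with quantile normalization, -0.11 without LKO HFD 3, 4 and 5, and -0.069 to 0.17 without single mice. Apoe was 0.21 with quantile normalization, 0.16 without LKO HFD 3, 4 and 5, and -0.10 to 0.028 without single mice. Atp5b was -0.11 and Dcn -0.043 with centring, and they were -0.062 to 0.07 and -0.047 to 0.20 without single mice. Cd79a was -0.023 with centring and -0.014 with quantile normalization, Ccl5 was -0.016 to 0.27 and Hba-a1 -0.56 to 0.16 without single mice, Hba-a1 was 0.16 without the mice with the highest Saa1, and Rpl10 was 0.097 without LKO HFD 3, 4 and 5. For changes beyond those that fewer mice or a wider threshold bring by construction, the cause was not tested. Depth limits genes near 0.5 RPKM.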
